A study of Mus musculus with 3 samples.

Results

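The miR-17~92 cluster is a group of hairpins that are cut from a single primary transcript, the product of the gene Mir17hg. Its mature miRNAs were found by name in the deposited lists of normalized reads. Every listed arm of miR-17, miR-18a, miR-19a and miR-20a was taken, together with the listed arms of the cluster's copies of miR-19b and miR-92a. This gave 11 of the 693 listed miRNAs. The 12th arm that the names allow, miR-19b-1-5p, was not listed, and it may have had reads below the authors' minimum of 10 over the 3 libraries.

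The libraries were made from small RNA of TAG1 mouse ES cells, a line that carries a constitutively active Alk4* receptor under the control of doxycycline (Dox), with 1 library per condition. Untreated cells (0 hr, labelled Control) were in medium with serum. SB cells (16 hrs SB) had been exposed for 16 hrs to 30 µM of the receptor inhibitor SB (SB-431541 in the labels, SB-431542 in the methods), which blocks the phosphorylation of Smad2/3. Dox cells (16+12 hrs, labelled Dox) had been exposed to SB in the same way and then for 12 hrs to 1 µg/µl Dox, which induces Alk4*. Both treated cultures were grown with serum replacement, so the medium and the treatment cannot be told apart in a comparison with untreated cells. With 1 library per condition no difference has a replicate check, and every interval given is a 95% interval for counting error only.

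Mature miRNAs are made when Drosha releases a hairpin from the primary transcript and Dicer cuts it into a duplex of a 5p and a 3p arm. One arm is usually kept by the silencing complex and the other degraded, and the seed of the kept arm selects its targets. The cluster is transcribed under the control of Myc and E2F factors, is abundant in proliferating and pluripotent cells, and is known as an oncogene. Its loss in the mouse is lethal around birth, with small lungs and a block in B cell development. Targets established for its seed families include Cdkn1a and Tgfbr2 for miR-17 and miR-20a, and Bcl2l11 for miR-92a and other families.

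On GRCm38 the cluster spans 836 bases of chromosome 14 (115043671 to 115044506, + strand) and its 6 hairpins follow each other in the order mir-17, mir-18a, mir-19a, mir-20a, mir-19b-1 and mir-92a-1. GENCODE places each of them within an exon of the lncRNA gene Mir17hg (115042879 to 115046727), which it annotates with 2 exons. The hairpin of mir-17 is shown from RefSeq (chr14:115043671-115043754, GRCm38.p6, + strand) with its arms in capitals, because both arms were abundant in these libraries and only the 3p arm was called lower with SB.

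mir-17 hairpin: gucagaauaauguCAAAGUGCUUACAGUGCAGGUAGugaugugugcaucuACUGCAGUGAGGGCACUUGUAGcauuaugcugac

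The mature sequences follow, also from RefSeq, which held 10 of the 11 listed arms. They are written 5′ to 3′ with the seed, bases 2 to 8, in capitals. They are shown because the seed decides which miRNAs act as one family, and the values of paralogous miRNAs are compared by seed. The first pair shares the seed of the miR-17 family.

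miR-17-5p: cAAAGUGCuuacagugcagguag
miR-20a-5p: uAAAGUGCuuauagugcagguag

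miR-18a-5p differs from this seed in the middle, and the miR-19 arms and miR-92a-3p have seeds of their own.

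miR-18a-5p: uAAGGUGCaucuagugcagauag
miR-19a-3p: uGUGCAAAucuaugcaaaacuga
miR-19b-3p: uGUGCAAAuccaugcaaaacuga
miR-92a-3p: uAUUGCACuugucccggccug

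The remaining arms lie opposite these in the hairpins and carry other seeds.

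miR-17-3p: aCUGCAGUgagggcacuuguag
miR-18a-3p: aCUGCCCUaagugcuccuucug
miR-20a-3p: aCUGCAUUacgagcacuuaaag
miR-92a-1-5p: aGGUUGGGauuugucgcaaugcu

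Members with the same seed are close in sequence, so the assignment of reads matters. miR-17-5p and miR-20a-5p differ at 2 of 23 positions, and miR-19a-3p and miR-19b-3p at 1 of 23. The authors allowed perfect matches only and kept reads longer than 16 bases. Among listed miRNAs with a RefSeq sequence, the only one that shared a run of more than 16 bases with a member was miR-18b-5p, which shares 17 with miR-18a-5p. Short reads of miR-18a-5p and miR-18b-5p therefore could not always be told apart. The mature sequences of miR-19b-3p and miR-92a-3p are also encoded on the X chromosome, in mir-19b-2 and mir-92a-2 of the miR-106a~miR-363 cluster, and their reads from both loci were counted together.

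The levels are in rpm, reads per 1000000, as the authors scaled each library. The steps between the values gave back whole read numbers, with totals of 9895513 to 11354692 reads per library, of which 24.1% to 33.4% were on listed miRNAs. These totals, which the rpm values imply, are lower than the total reads stated by the study, and by a larger share in the Dox library than in the others. As a check of the cell type, all 16 miRNAs of a list known from ES cells (the miR-290~295 and miR-302 families) were listed, and they held 27.0% to 28.9% of the miRNA reads. Their summed level was 81816 rpm in untreated cells, 65167 rpm with SB and 93749.6 rpm with Dox. By the criteria given below, 4 were lower and 5 higher with SB than in untreated cells. With Dox, 8 were lower and 6 higher than with SB. All 8 miRNAs of a list known from fibroblasts, such as those of feeder layers, were listed as well, and their summed level was 2261 rpm in untreated cells, 5314 rpm with SB and 2888 rpm with Dox. All 8 were higher with SB than in untreated cells, 7 were lower again with Dox, and none was at 0 in any library. The part of other cells in the changes of the cluster was not tested, and fewer cells of a type cannot be told apart from less RNA per cell.

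The summed level of the 11 arms was 6463 rpm in untreated cells (6416 to 6511), 3984 rpm with SB (3948 to 4021) and 7058 rpm with Dox (7005 to 7110.3). The cluster was thus lowest in the SB library and about as high with Dox as in untreated cells. It made up 2.28% of the miRNA reads in untreated cells, 1.65% with SB and 2.11% with Dox, so the SB library was lowest on this scale too. A single arm, miR-92a-3p, gave 82.9% of the cluster's reads in untreated cells, 81.5% with SB and 79.0% with Dox, and the sum is mostly the account of this arm.

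miR-92a-3p had 5360.1 rpm in untreated cells, 3248 rpm with SB and 5573 rpm with Dox, with 36877 reads or more in every library. It was the 12th most abundant of all listed miRNAs in untreated cells, the 17th with SB and the 13th with Dox. No other member came near it. The next most abundant arms were miR-17-3p, with 414, 219.6 and 498 rpm in that order, and miR-92a-1-5p, with 294, 154 and 555 rpm. Both are arms that carry a star in older names, and each was lowest in the SB library.

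The arms usually taken as the functional ones of the other hairpins were lower than both, by little for miR-17-5p against miR-92a-1-5p with SB. miR-17-5p had 149 rpm in untreated cells, 137 rpm with SB and 180.1 rpm with Dox. miR-19b-3p had 119, 114 and 83.7 rpm, and it was the only member with over 100 reads in every library whose lowest level was in the Dox library. miR-20a-5p had 75.7, 65.9 and 89.8 rpm. miR-18a-5p, from the hairpin whose processing is known to depend on hnRNP A1, had 40.3, 36.5 and 57.6 rpm. For miR-17-5p, miR-18a-5p and miR-20a-5p the intervals of untreated and SB cells overlapped or almost touched, whereas for each the Dox level lay above both.

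The remaining arms had few reads. miR-18a-3p had 5.02 rpm in untreated cells, 4.40 rpm with SB and 12.1 rpm with Dox, from 55, 50 and 120 reads. miR-19a-3p, whose seed is shared with miR-19b-3p, had 3.19, 3.26 and 4.95 rpm. The intervals of miR-19a-3p overlapped in all 3 libraries, and those of miR-18a-3p separated the Dox library from the others. miR-19a-5p had 20, 10 and 24 reads and miR-20a-3p had 18, 14 and 12, so changes of these arms were not detectable at this depth unless they were large.

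**Figure D1:**
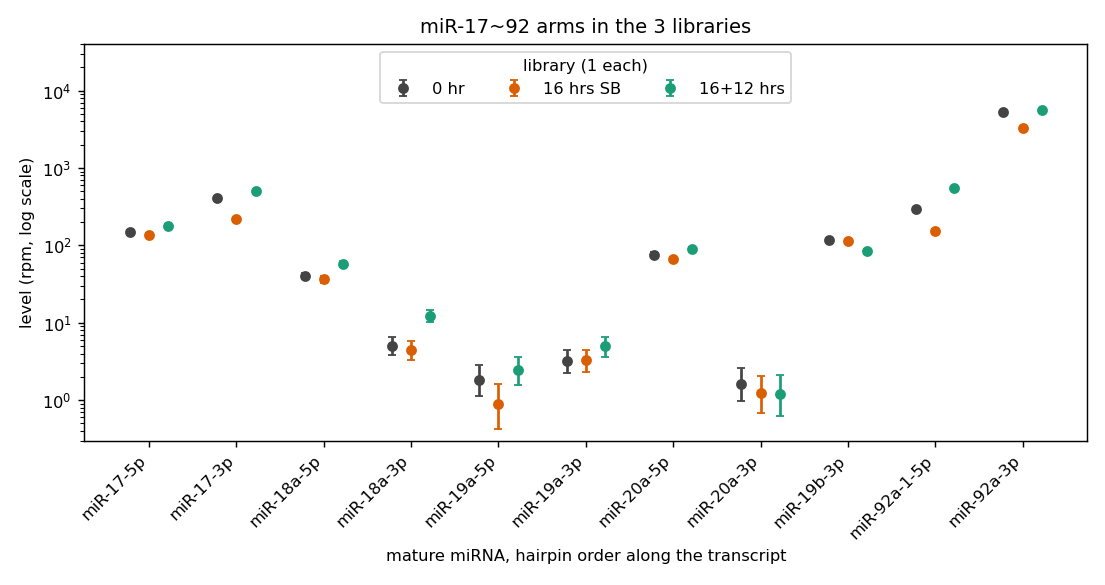
Level in rpm (log scale) of each listed miR-17~92 arm, in hairpin order, in the 0 hr, 16 hrs SB and 16+12 hrs libraries; bars are 95% Poisson intervals. miR-92a-3p stands at 3248 to 5573 rpm, over all other arms, and miR-17-3p and miR-92a-1-5p show the clear dip at 16 hrs SB.

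The comparison of SB with untreated cells asks which miRNAs were lower when Smad2/3 activation was blocked. A miRNA was called when its log2 ratio was at least 0.32 in size and a Z-score on the reads of the 2 libraries passed the 95% level. These criteria follow the study's methods and compare libraries, not conditions. By these criteria 3 of the 11 members fell, miR-17-3p, miR-92a-1-5p and miR-92a-3p, and none rose. Over all listed miRNAs 30.2% were called lower and 15.3% higher, so the members' count is near the background.

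The log2 ratio of SB over untreated was −0.91 (−0.99 to −0.84) for miR-17-3p, −0.93 (−1.02 to −0.85) for miR-92a-1-5p and −0.72 (−0.74 to −0.70) for miR-92a-3p. The median over all listed miRNAs was −0.19, and 0.04 after scaling to the miRNA reads of each library. The other arms with over 100 reads in every library stayed close to that median. miR-17-5p had a log2 ratio of −0.12 (−0.22 to −0.02), miR-18a-5p −0.14 (−0.34 to 0.06), miR-20a-5p −0.20 (−0.34 to −0.06) and miR-19b-3p −0.06 (−0.17 to 0.05). Over the 11 members the median was −0.20, near the −0.19 of all listed miRNAs. The 3 that fell were lower, and past the criteria, under each of the 6 scalings of the libraries that were compared. These were rpm, the total reads stated for each library, the miRNA reads, median-of-ratios, quantile normalization and the level of miR-26a-5p. The control miRNA miR-26a-5p itself had 647 rpm in untreated cells, 766 rpm with SB and 798 rpm with Dox.

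miR-19a-5p had the lowest log2 ratio of the cluster, −1.05, but from 20 and 10 reads, and its interval ran from −2.31 to 0.11. With the fold alone and no Z-score, miR-19a-5p and miR-20a-3p would also count as lower, 5 of 11 against 42.9% of all listed miRNAs. Both have under 30 reads in every library.

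The comparison of Dox with SB asks which miRNAs were higher in the culture in which Alk4* was induced. That culture was also collected later, after more time in serum replacement and after the SB step had been followed by Dox. The induction of Alk4* was therefore not tested apart from time, the change from SB and Dox itself. For a parental line without Alk4*, the paper tabulates no value for an arm of this cluster. By the same criteria 8 of the 11 members rose and 1, miR-19b-3p, fell, where 41.7% of all listed miRNAs were called higher and 17.9% lower. The 8 were both arms of mir-17, of mir-18a and of mir-92a-1, together with miR-19a-5p and miR-20a-5p. The median log2 ratio over the members was 0.66, against 0.38 over all listed miRNAs. When each library was scaled to its miRNA reads the median of all listed miRNAs was −0.09 and 3 members were called higher, where 23.5% of all listed miRNAs were, so this count depended on the scaling and was then near the background.

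The largest of these ratios among the abundant arms was that of miR-92a-1-5p, with 1.85 (1.77 to 1.93), which made its Dox level 3.61 times that with SB. For miR-17-3p the log2 ratio was 1.18, with a lower bound of 1.11, and for miR-92a-3p 0.78 (0.76 to 0.80). miR-18a-3p had 1.46 (0.97 to 1.97). Under the 6 scalings miR-17-3p, miR-18a-3p and miR-92a-1-5p were called higher each time and miR-92a-3p and miR-19a-5p in 5 of the 6.

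miR-17-5p had a log2 ratio of 0.40 (0.30 to 0.50), miR-20a-5p of 0.45 (0.31 to 0.59) and miR-18a-5p of 0.66 (0.47 to 0.84). All 3 were called higher, yet miR-17-5p and miR-20a-5p lay near the overall median of 0.38. Scaling to miRNA reads put them at −0.07 and −0.02. miR-18a-5p stayed above 0 under all 6 scalings, with a lowest value of 0.19. It was called in 3 of them. miR-19b-3p had a log2 ratio of −0.45 (−0.58 to −0.32) and was called lower under all 6. The mature miRNAs of neighbouring hairpins, mir-19b-1 and mir-92a-1, thus moved in opposite directions, with reads of the X-chromosome copies included in miR-19b-3p and miR-92a-3p.

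**Figure D2:**
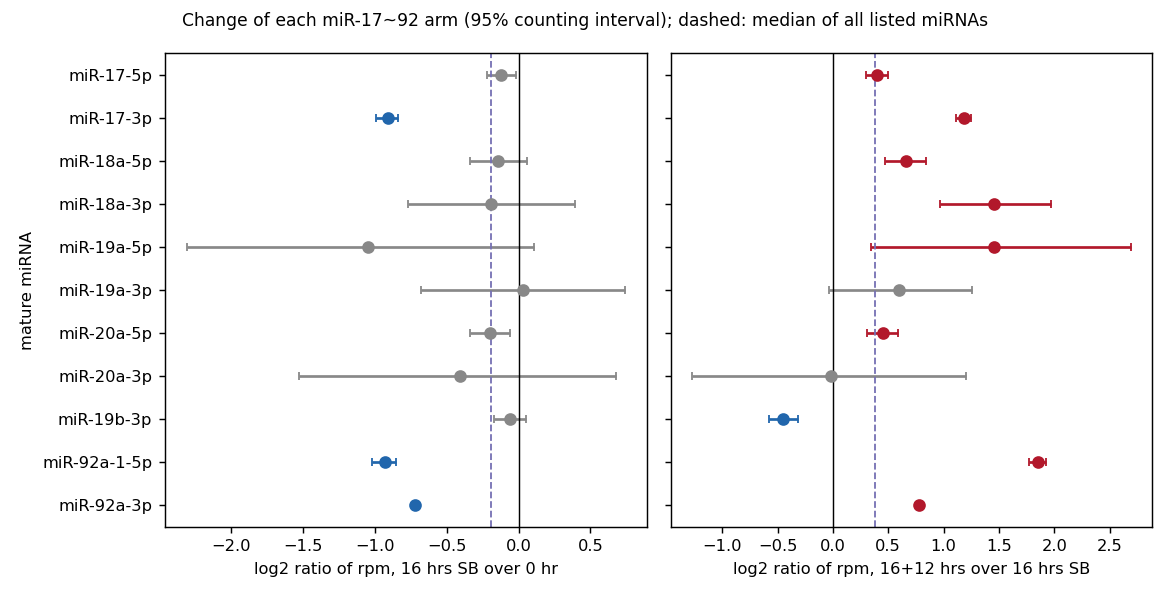
Log2 ratio of rpm for each member, 16 hrs SB over 0 hr (left) and 16+12 hrs over 16 hrs SB (right); bars are 95% counting intervals, blue and red mark members called lower and higher, and the dashed line is the median of all listed miRNAs (−0.19 and 0.38). The 3 blue points on the left are miR-17-3p, miR-92a-1-5p and miR-92a-3p, and miR-19b-3p is the 1 blue point on the right.

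Lower with SB and higher with Dox together make up what the study calls the p-Smad2/3 activation profile. It was met by 3 of the 11 members, the same miR-17-3p, miR-92a-1-5p and miR-92a-3p, and by 20.9% of all listed miRNAs. Both comparisons use the SB library, so a low value there lowers one ratio and raises the other. No member had the reverse of the profile, which 9.67% of all listed miRNAs had. Only miR-92a-3p also passed the abundance minimum, a sum of 1000 rpm in each compared pair. After scaling to miRNA reads miR-92a-3p no longer had the profile, with a log2 ratio of Dox over SB of 0.31, and 2 of the 11 members met it, against 11.4% of all listed miRNAs.

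**Figure D3:**
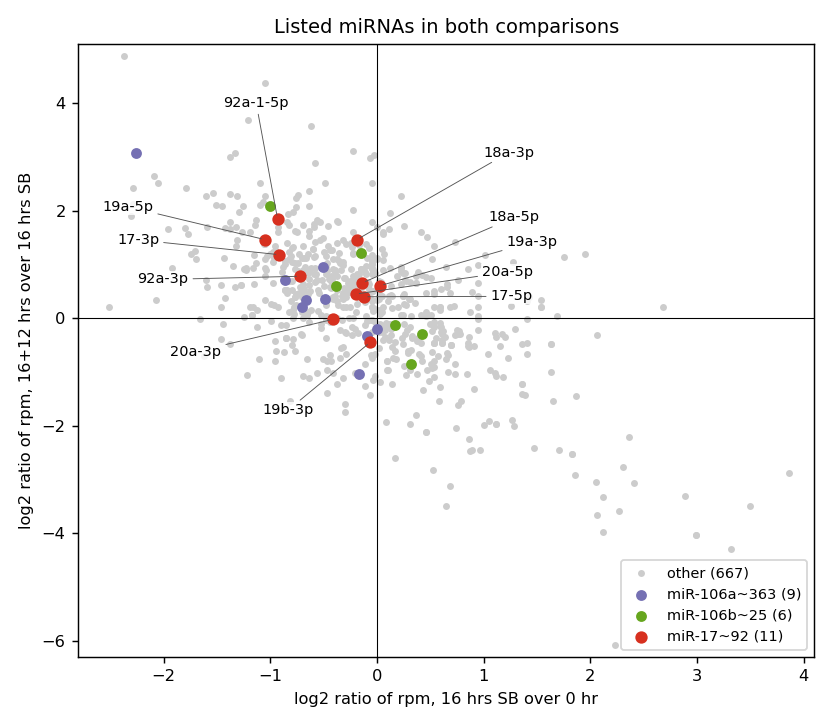
Each point is a listed miRNA, with its log2 ratio of 16 hrs SB over 0 hr on the horizontal axis and of 16+12 hrs over 16 hrs SB on the vertical axis; miR-17~92 is in red, its paralogous clusters in purple and green. The 3 members with the activation profile lie at the upper left together with miR-19a-5p, while miR-17-5p, miR-18a-5p, miR-20a-5p and miR-19a-3p lie near the middle and miR-19b-3p below 0.

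Set directly against untreated cells, the Dox library had a higher summed level of the cluster by a log2 ratio of only 0.13 (0.11 to 0.14), which became negative under 3 of the other scalings. In this comparison 4 of the 11 members were called higher, miR-18a-5p, miR-18a-3p, miR-19a-3p and miR-92a-1-5p, and miR-19b-3p was called lower. The background was 30.6% higher and 19.8% lower. The log2 ratio was 0.92 (0.86 to 0.98) for miR-92a-1-5p and 1.27 (0.80 to 1.76) for miR-18a-3p. It was 0.63 (−0.02 to 1.30) for miR-19a-3p, from 35 and 49 reads, an interval that includes 0 although the Z-score passed. For miR-92a-3p it was 0.06 (0.04 to 0.07), and for miR-17-3p 0.27 (0.21 to 0.32). The calls of miR-18a-5p and miR-19a-3p were made in 2 of the 6 scalings, and those of miR-18a-3p, miR-92a-1-5p and miR-19b-3p in all 6. miR-92a-3p, whose reads include those of mir-92a-2, was thus near its untreated level with Dox, and miR-92a-1-5p was above its own.

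A ratio of 2 miRNAs within a library is not altered by any factor applied to the whole library, though quantile normalization alters it. Members were therefore also set against miR-17-5p, the first arm of the transcript. There were 36.1 reads of miR-92a-3p for each read of miR-17-5p in untreated cells, 23.8 with SB and 30.9 with Dox. There were 1.98, 1.12 and 3.08 reads of miR-92a-1-5p in the same order. Both ratios were lowest in the SB library. For miR-20a-5p the ratio was 0.510, 0.482 and 0.499, with a log2 change of −0.08 (−0.25 to 0.09) on going to SB and of 0.05 (−0.12 to 0.22) on going from SB to Dox. These same-seed arms of 1 transcript differed in proportion by no more than counting error.

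For miR-18a-5p the ratio to miR-17-5p was 0.271 in untreated cells, 0.267 with SB and 0.320 with Dox. The last step was a log2 change of 0.26 (0.05 to 0.47). For miR-19b-3p the ratio was 0.803, 0.835 and 0.465, a log2 change of −0.85 (−1.01 to −0.69) with Dox. The proportions of these mature miRNAs therefore differed between libraries by more than counting error. From SB to Dox this held for miR-17-3p, miR-18a-5p, miR-18a-3p, miR-19b-3p, miR-92a-1-5p and miR-92a-3p. For miR-17-3p it did not hold from untreated cells to Dox (−0.01, −0.13 to 0.10). The reads of miR-19b-3p and miR-92a-3p include those of the X-chromosome copies, so their changes are not specific to this transcript.

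The balance of the arms within a hairpin is likewise untouched by such a factor. In mir-17 the 5p arm held 26.4% of the reads of both arms in untreated cells (25.3 to 27.5), 38.4% with SB (36.9 to 39.9) and 26.6% with Dox (25.5 to 27.6). The 3p arm was therefore the major arm in all 3 libraries, by 2.79 to 1 in untreated cells, 1.61 to 1 with SB and 2.76 to 1 with Dox. The untreated and Dox libraries could not be told apart by this share, and the SB library stood apart from both.

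mir-92a-1 behaved otherwise. Its 5p arm held 5.19% of the reads in untreated cells (5.02 to 5.37), 4.52% with SB (4.32 to 4.73) and 9.05% with Dox (8.83 to 9.28). None of these intervals overlapped, and the Dox library was the farthest from the others. Because the reads of miR-92a-3p include those of mir-92a-2, these shares are below those of the hairpin itself. The part from mir-92a-2 is not known and may differ between libraries, since miR-92a-2-5p had 386, 80.6 and 677 rpm. The change of the share therefore cannot be assigned to the balance of this hairpin.

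In mir-18a the 5p arm held 88.9%, 89.2% and 82.6% of the reads in the same order, with the last interval (79.6 to 85.4) below the others (85.8 to 91.5 and 86.1 to 91.9). In mir-20a the 5p arm held 97.9%, 98.2% and 98.7%, with overlapping intervals. mir-19a had 73 reads or fewer on both arms together, and its shares of 36.4%, 21.3% and 32.9% also overlapped. The share of mir-20a rests on 18, 14 and 12 reads of its 3p arm, too few to say how far its balance moved. Of the cluster's hairpins with over 100 reads, mir-17 had the most even use of its arms. In the paralogous clusters, the 5p share was 68.5% for mir-106b and 66.9% for mir-18b in untreated cells, and 51.9% and 69.9% with Dox. These were more even than mir-17 in the same libraries, though not with SB.

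**Figure D4:**
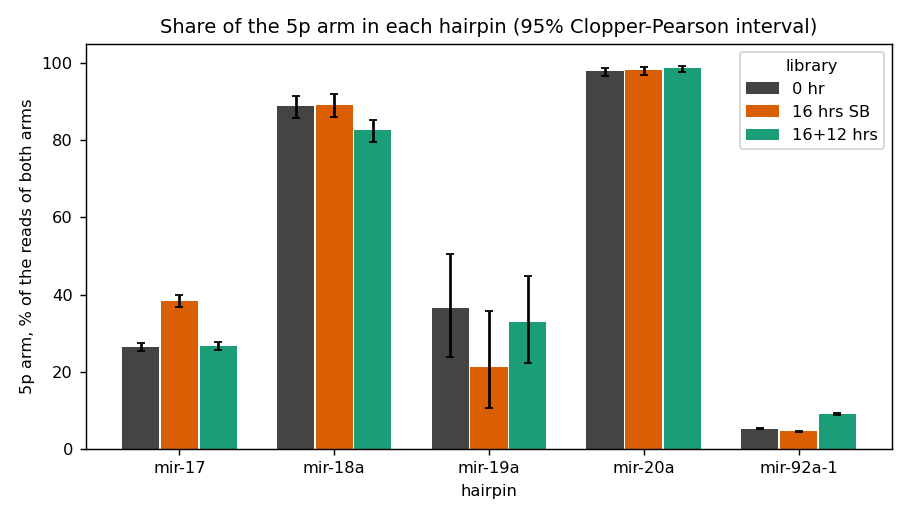
Share of the 5p arm in the reads of both arms of 5 hairpins of the cluster, in percent, for the 3 libraries; bars start at 0 and error bars are 95% Clopper-Pearson intervals. mir-17 is higher at 16 hrs SB (38.4%) than in the other libraries (26.4% and 26.6%). mir-92a-1 is highest at 16+12 hrs (9.05%), with the reads of mir-92a-2 included in its 3p arm.

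Mammals have a pair of paralogous clusters that arose by duplication of miR-17~92. miR-106a~miR-363 lies on the X chromosome and miR-106b~25 in an intron of Mcm7 on chromosome 5, and they had 9 and 6 listed arms. For miR-106a~miR-363 the sum was 3343 rpm in untreated cells, 1828 rpm with SB and 3230.2 rpm with Dox, and for miR-106b~25 it was 15351, 11870.3 and 19277 rpm. As listed, the sums leave out miR-19b-3p and miR-92a-3p, which were given to miR-17~92. In all 3 clusters the sum in rpm was lowest with SB. With SB, 6 of the 9 arms of miR-106a~miR-363 were called lower and none higher, and 2 of the 6 arms of miR-106b~25 lower and 1 higher. With Dox, 4 of the former were called higher and 2 lower, and 3 of the latter higher and 1 lower. The activation profile was met by 4 of the 9 arms of miR-106a~miR-363 and by 2 of the 6 arms of miR-106b~25, where 20.9% of all listed miRNAs met it, 30.2% were called lower with SB and 41.7% higher with Dox. These counts varied with the scaling. After scaling to miRNA reads the profile was met by 1 arm of each cluster, against 11.4% of all listed miRNAs, and over the 6 scalings by 1 to 4 arms of miR-106a~miR-363 and 1 to 3 of miR-106b~25.

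The miR-17 seed (AAAGUGC) was carried by 6 listed miRNAs, the 5p arms of miR-17, miR-20a, miR-106a, miR-20b, miR-106b and miR-93. Their summed level was 1347 rpm in untreated cells, 1555 rpm with SB and 1414 rpm with Dox, and miR-17~92 gave 16.6%, 13.0% and 19.1% of it. The family as a whole did not share the dip of miR-92a-3p, with a log2 ratio of SB over untreated of 0.21, or −0.04 to 0.44 over the 6 scalings. From SB to Dox the log2 ratio was 0.40 and 0.45 for the members on chromosome 14 (−0.07 and −0.02 when scaled to miRNA reads), and −0.20, −0.34, −0.12 and −0.29 for miR-106a-5p, miR-20b-5p, miR-106b-5p and miR-93-5p. A factor applied to a whole library shifts all 6 values alike and leaves the gap between the clusters as it is.

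miR-106a-5p, which differs from miR-17-5p at 1 of 23 positions, shows this most directly.

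miR-17-5p: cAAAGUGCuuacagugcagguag
miR-106a-5p: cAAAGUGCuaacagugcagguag

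There were 2.11 reads of miR-17-5p for each read of miR-106a-5p in untreated cells, 1.94 with SB and 2.94 with Dox. The log2 change of this ratio was −0.12 (−0.29 to 0.06) with SB and 0.60 (0.42 to 0.78) with Dox. miR-20a-5p changed against miR-20b-5p in the same way, from 0.550 and 0.512 to 0.885, a log2 change with Dox of 0.79 (0.61 to 0.97). Both arms of the chromosome 14 cluster thus gained on their X-chromosome counterparts in the Dox library, beyond counting error, and neither did so with SB.

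The opposite arms of these paralogs differed more. miR-17-3p shares its seed, CUGCAGU, with miR-106a-3p and miR-20b-3p, which were scarce, and it gave 93.8% to 96.5% of the reads of this seed. miR-106a-3p had 7.94 rpm in untreated cells, 7.05 rpm with SB and 3.44 rpm with Dox, and it fell between the last libraries by a log2 ratio of −1.04 (−1.66 to −0.44), where miR-17-3p rose. miR-20b-3p fell and then rose as miR-17-3p did, with log2 ratios of −0.51 (−0.93 to −0.09) and 0.94 (0.55 to 1.34). The fall of miR-20b-3p lost its call under 3 of the 6 scalings. In miR-106b~25 the arm opposite miR-106b-5p, miR-106b-3p, had 153, 137 and 316 rpm, and that opposite miR-25-3p, miR-25-5p, had 1416, 706 and 2996 rpm. miR-25-5p fell and rose, as miR-92a-1-5p did at the same place of its hairpin, with a level with Dox that was 4.24 times that with SB.

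The 5p arms of the miR-92a hairpins are the only listed arms that tell the chromosome 14 hairpin from that on the X chromosome.

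miR-92a-1-5p: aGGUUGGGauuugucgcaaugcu
miR-92a-2-5p: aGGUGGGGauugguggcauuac

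miR-92a-2-5p had 386 rpm in untreated cells, 80.6 rpm with SB and 677 rpm with Dox, so arms of both hairpins were present in every library. There were 0.760 reads of miR-92a-1-5p for each read of miR-92a-2-5p in untreated cells, 1.91 with SB and 0.819 with Dox. Both arms fell and rose, and miR-92a-2-5p did so by more, with a log2 change of the ratio of 1.33 (1.19 to 1.46) with SB and of −1.22 (−1.35 to −1.09) with Dox. miR-92a-3p can come from either hairpin, and its own ratios of −0.72 and 0.78 were smaller than those of both 5p arms.

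Among 6 listed miRNAs with the miR-92a seed (AUUGCAC), miR-25-3p of the miR-106b~25 cluster was the most abundant, with 12856 rpm in untreated cells, 9859 rpm with SB and 14975 rpm with Dox. miR-92a-3p gave 28.3%, 23.9% and 26.0% of the family. Its ratio to miR-25-3p was 0.417, 0.329 and 0.372, so it lost ground with SB (log2 change −0.34, −0.36 to −0.32) and regained part of it with Dox (0.18, 0.15 to 0.20). miR-363-3p, the X-chromosome member, had log2 ratios of −0.70 (−0.77 to −0.64) and 0.21 (0.13 to 0.28). The ratio of miR-92a-3p to miR-363-3p was 11.7 and 11.5 in the first libraries, a log2 change of −0.02 (−0.09 to 0.04), and 17.1 with Dox. miR-32-5p, a member of the family outside the clusters, had 41.6, 34.8 and 48.8 rpm. The remaining miRNAs with this seed, named after their values were seen, had log2 ratios with SB and with Dox of −0.37 and 1.78 for miR-92b-3p, the highest Dox over SB ratio of the 6, and of −0.05 and 0.91 for miR-367-3p.

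In the miR-18 pair the ratio moved in the same direction at both steps. miR-18b-5p had 26.0, 18.6 and 23.6 rpm, with log2 ratios of −0.49 (−0.75 to −0.22) and 0.35 (0.07 to 0.62), where the rise was called in 1 of the 6 scalings. There were 1.55 reads of miR-18a-5p for each read of miR-18b-5p in untreated cells, 1.97 with SB and 2.44 with Dox. The log2 change was 0.35 (0.02 to 0.67) with SB, 0.31 (−0.02 to 0.63) from SB to Dox and 0.65 (0.35 to 0.96) from untreated cells to Dox, so the first and the last were beyond counting error. For the miR-19 seed (GUGCAAA) both listed miRNAs are members, and miR-19b-3p outnumbered miR-19a-3p by 37.3 to 1 in untreated cells and by 16.9 to 1 with Dox. The log2 change of this ratio was −0.09 (−0.77 to 0.58) with SB. The step from SB to Dox was a log2 change of −1.05 (−1.68 to −0.42).

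**Figure D5:**
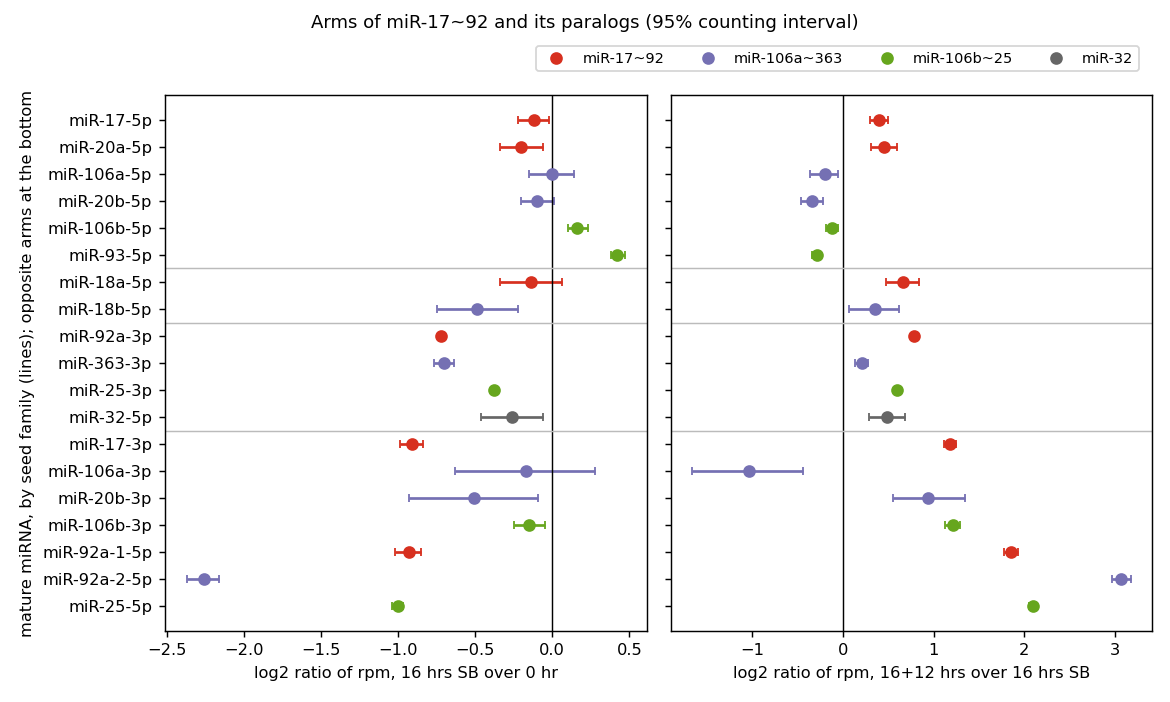
Log2 ratios of rpm with 95% counting intervals for arms of miR-17~92 (red), miR-106a~miR-363 (purple), miR-106b~25 (green) and miR-32 (grey), grouped by seed, with the opposite arms at the bottom. On the right, miR-17-5p and miR-20a-5p lie above 0 (0.40 and 0.45 in rpm, −0.07 and −0.02 when scaled to miRNA reads) and the other 4 arms with their seed below it (−0.34 to −0.12).

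The arms that fell with SB had more G and C than most others. GC content was 57.1% for miR-92a-3p, 54.5% for miR-17-3p and 47.8% for miR-92a-1-5p, against 34.8% to 43.5% for the miR-19, miR-20a and miR-18a-5p arms. miR-17-5p has the 47.8% of miR-92a-1-5p and miR-18a-3p the 54.5% of miR-17-3p, and neither was called lower. Across the 10 arms with a sequence, which come from the same libraries and 1 transcript, Pearson's r of GC content was −0.63 with the log2 ratio of SB over untreated and 0.59 with that of Dox over SB (Spearman's rho −0.61 and 0.64). Over all listed miRNAs, of which 74.5% had a sequence, the same comparison was not made, so these values have no background beside them. Both ratios use the SB library and the arms are not independent, so the values are not separate results. The part of base composition in the changes was not tested.

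The listed miRNAs outside the cluster with the most similar pattern were found by the distance over both log2 ratios, among 284 with at least 100 reads in every library. With only 3 libraries this is a weak likeness. Nearest to miR-17-5p were miR-219-5p, miR-1934-3p and miR-379-5p, at distances of 0.063 to 0.092. Nearest to miR-17-3p were miR-3095-3p, miR-302a-5p and miR-409-3p (0.055 to 0.113). For miR-92a-1-5p they were miR-219-1-3p, miR-320-3p and miR-296-3p (0.112 to 0.154), and for miR-92a-3p they were miR-129-1-3p, miR-185-5p and miR-342-5p (0.043 to 0.114). Each list was cut at 3 miRNAs around arms whose own ratios differ, so the lists could hardly share a miRNA. No arm of the paralogous clusters was among them. miR-363-5p, with log2 ratios of −0.87 and 0.72, was nonetheless close to miR-92a-3p, with −0.72 and 0.78.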

How the data were processed

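Short RNA was sequenced from 3 TAG1 ES cell cultures, 1 library each. The authors trimmed adaptors with FASTX, discarded reads of 16 bases or less and aligned the rest to miRBase 18 with Bowtie (0.12.7 in the submitters' processing notes), with no mismatch allowed. Where several miRNAs fitted a read, its length decided, or each was given the read. Both runs were pooled, and miRNAs with fewer than 10 reads in total were dropped. The deposited values are RPM, reads scaled by the authors to 1000000 per library.

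Read numbers were taken from the steps of the RPM values, and all 2079 values were whole within 0.001. Fold changes are ratios of RPM without a pseudocount. Calls needed a fold of 1.25 and a Z-score of 1.96 in size, computed from 2 libraries, with no test of a condition. Intervals are 95%: Poisson for levels, Clopper-Pearson for shares and for ratios of 2 read numbers, and normal on the log scale for ratios of ratios. The call rule was run on simulated reads that held counting error alone, which cannot test differences between cultures or the choice of scaling. Python 3.11.15 with scipy 1.17.1 was used.

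Named miRNAs are the members, the listed arms of both paralogous clusters, miR-32, miR-26a-5p and the 3 nearest patterns of 4 members. miR-92b-3p and miR-367-3p, which share the miR-92a seed, were added after their values were seen. Members, lists and alternatives were chosen with earlier results of these data known. Positions are from GENCODE M21 and RefSeq (GRCm38.p6), matched by name, since the authors' files hold no coordinates.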

Additional observations from a re-analysis of the deposited data

How the results depend on the processing

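The alternatives were other scalings, thresholds, a read minimum and a pseudocount. No paired analysis was possible because each condition had 1 library, and none could be left out for the same reason. Members called lower with SB than in untreated cells numbered 7 of 11 with the libraries scaled to miR-26a-5p (42.9% of all listed miRNAs), 5 with the fold alone and 0 at 2-fold. Those called higher with Dox than with SB numbered 3 with scaling to miRNA reads (23.5% of all listed miRNAs), 5 under median-of-ratios (26.7%) and quantile normalization (32.5%) and 4 at 2-fold (22.2%). Those with the activation profile numbered 7 with scaling to miR-26a-5p (27.7% of all listed miRNAs) and 0 at 2-fold. The other counts of members were within 1.5 times the reported ones. Over all listed miRNAs the activation profile was met by 145, and by 79 with scaling to miRNA reads, 86 under median-of-ratios and 41 at 2-fold. Those higher with Dox than with SB numbered 289, and 163, 185 and 154 under the same alternatives. Those lower with SB numbered 209, and 67 at 2-fold.

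The log2 ratio of the summed cluster, for SB over untreated, Dox over SB and Dox over untreated, was −0.47, 0.36 and −0.11 with scaling to miRNA reads, −0.52, 0.45 and −0.07 under median-of-ratios, −0.40, 0.44 and 0.03 under quantile normalization, and −0.94, 0.77 and −0.17 with scaling to miR-26a-5p. With the total reads the study states, the last 2 were 0.76 and 0.06. Without miR-19b-3p and miR-92a-3p they were −0.66, 1.17 and 0.51. The direction of Dox against untreated cells thus depended on the scaling, and those of the other comparisons did not. The called rises of miR-17-5p and miR-20a-5p became −0.07 and −0.02 with scaling to miRNA reads. Depth limited miR-19a-5p and miR-20a-3p, which had under 30 reads in every library.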
